A study of Danio rerio with 6 samples.

Results

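The genes described here encode the proteins that build and steer the spliceosome: the snRNP core proteins (snrp), the LSm proteins, the SF3A, SF3B and U2AF factors, the PRPF proteins, the SR proteins (srsf) and the hnRNP proteins. They were chosen by gene symbol, from the RefSeq accessions that the array lists for its probes, and each gene is represented by its brightest probe. The array carried 75 such genes. Of these, 72 were well above background on all 6 arrays in the control or the trained channel, among 15778 genes that passed the same filter. All 72 passed it in both channels. They comprised 11 snRNP core, 8 LSm, 12 SF3 and U2AF, 12 PRPF, 14 SR and 15 hnRNP genes. The other 3, lsm14b, srsf7b and hnrnph3, did not pass.

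The series asked how swim-training affects the caudal fin of wildtype zebrafish larvae. Trained larvae swam daily in sessions of 3 h from 5 to 10 days post fertilisation, and control larvae of the same age and strain were not trained. At 10 days the caudal fins of 15 larvae were pooled for each RNA sample, which gave 2 control pools and 2 trained pools, numbered 2 and 3 in each group, of which 100 ng of RNA was labelled. The trained and control pools of the same number were hybridised together on 2-colour Agilent arrays, pool pair 2 on 4 arrays (2 of them technical repeats) and pool pair 3 on 2 arrays, with both dye orientations in each pair.

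Most zebrafish genes contain introns, which the spliceosome removes from the primary transcript. Its building blocks are small nuclear ribonucleoproteins, each an RNA held in a ring of Sm or LSm proteins. SR proteins bind exons and as a rule favour the use of nearby splice sites, whereas many hnRNP proteins bind introns or silencer elements and oppose it. Dividing and growing cells make large amounts of this machinery, and the levels of SR and hnRNP proteins are known to shift the choice of exons. Letters a and b at the end of many zebrafish symbols mark copies kept from the ancestral genome duplication of teleost fish.

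Values are log2 ratios of trained over control, so that 0 means equal signal and a negative value a lower signal in trained fins. The replicate is the pool pair (n = 2), and the standard error (SE) is the moderated one that limma gives, which borrows spread from all genes. Pair values over all genes had a standard deviation of 0.15 in pair 2 and 0.53 in pair 3. Between 54.2% and 81.1% of probes were well above background, depending on the array and channel, and no member spot was saturated. All 9 distal fin markers, such as hoxa13a and and1, passed the filter. No gene of the 15778 passed the limma test on the 2 pair values (0% called at a Benjamini-Hochberg adjusted p under 0.05; lowest adjusted p 0.752), and at an unadjusted p under 0.05 there were 287 lower (1.82%) and 344 higher (2.18%). With 2 pairs, the smallest two-sided p of an exact sign-flip test is 0.5. Nothing below therefore passed a test of trained against control across pools, and group medians are given as descriptions.

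As a set, the splicing genes had mostly negative ratios, that is less signal from trained fins, and the negative values were larger in pool pair 3. Of the 72 members, 53 (73.6%) had a mean log2 ratio below 0, against 42.8% of all genes tested. Their median was -0.16, with -0.03 in pair 2 and -0.29 in pair 3, where the medians of all genes were 0.04, 0.02 and 0.05. In both pairs 35 members (48.6%) lay below 0 and 16 (22.2%) above, against 24.7% and 36.6% of all genes. On all 6 arrays 16 members (22.2%) were below 0 and 6 (8.33%) above, against 8.37% and 11.8% of all genes. With median centring in place of loess 4 members were below and 1 above. No share of all genes is given for these counts with median centring, so whether they changed more than over all genes cannot be said. The median over the members was -0.30 in that setting, against -0.015 over all genes. In pair 3 alone, 15 members (20.8%) were at least 1.5-fold lower, against 7.71% of all genes, and 4 were at least 1.5-fold higher, against 13.2%. In pair 2 a single member, hnrnpaba, was 1.5-fold lower (0.323% of all genes) and none was 1.5-fold higher (0.317%). Since each pool is bulk tissue, fewer cells rich in these transcripts and less of them per cell cannot be told apart.

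The 3 classes that the symbols define most clearly differed in their medians. The snRNP core genes had a median of -0.28 (-0.10 in pair 2, -0.54 in pair 3), and all 11 had a mean below 0. The hnRNP genes had a median of -0.25 (-0.02 and -0.37), with 12 of 15 below 0. The SR genes had a median of -0.07 (0.05 and -0.08), with 9 of 14 below 0. With median centring in place of loess the medians were -0.46 for snRNP core, -0.35 for hnRNP and -0.20 for SR genes, against -0.015 for all genes. The choice of the brightest probe also matters. Over every kept probe, the pair 3 medians were -0.58 for snRNP core, -0.31 for hnRNP and -0.18 for SR, against 0.02 for all genes' probes. Per array, the snRNP core median lay below that of all genes on each of the 6 arrays. The SR median lay above it only on both pair 2 arrays with trained RNA in Cy5, and below it on the other arrays. No test of the difference between classes was made, because genes of a class are not replicates of the training.

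**Figure D1:**
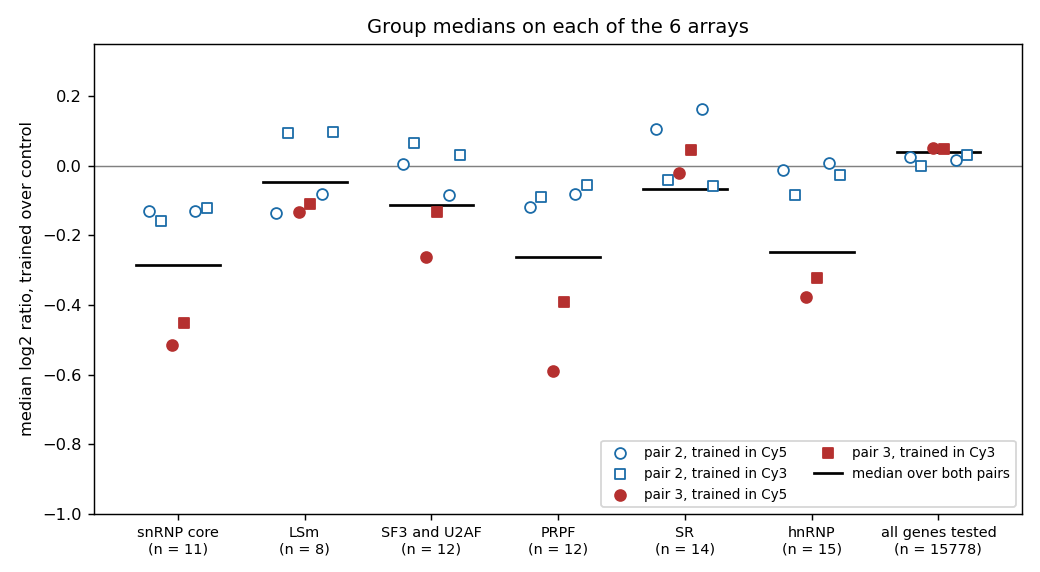
Median log2 ratio of trained over control for each gene group on each of the 6 arrays (vertical axis, log2 units). Open blue symbols are the 4 arrays of pool pair 2 and filled red symbols the 2 arrays of pool pair 3, circles and squares mark the dye of the trained RNA, and black lines are the medians of the gene means over both pairs. The pair 3 symbols lie lower than the pair 2 symbols for snRNP core, SF3 and U2AF, PRPF and hnRNP genes, and close to them for all genes tested.

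The Sm proteins form the ring around the U1, U2, U4 and U5 RNAs, and the lowest means of the snRNP core were among their genes. However, snrpg and snrpd3l had less negative means than the non-ring genes snrpc and snrpa1. The ring sub-list was made after the values were seen. All 8 ring genes on the array (snrpb, snrpd1, snrpd2, snrpd3, snrpd3l, snrpe, snrpf and snrpg) lay below 0 in both pool pairs, with a median of -0.35 (-0.18 in pair 2, -0.56 in pair 3). For snrpd2, which encodes SmD2, the 4 arrays of pair 2 gave -0.36, -0.36, -0.47 and -0.48, and the 2 arrays of pair 3 gave -1.31 and -1.30. All 6 arrays were thus lower in trained fins, with no overlap between the pairs. The mean was -0.86 ± 0.26 (SE, n = 2 pool pairs; limma unadjusted p = 0.0193, adjusted p = 0.752), which in pair 2 was a 1.33-fold and in pair 3 a 2.47-fold lower signal. Its ring neighbour snrpd1, for SmD1, gave -0.31, -0.36, -0.43 and -0.34 in pair 2 and -1.08 and -0.98 in pair 3. The mean was -0.70 ± 0.22 (SE, n = 2; limma unadjusted p = 0.0249, adjusted p = 0.752), and 2 further probes of snrpd1 had means of -0.44 and -0.47. For snrpe, for SmE, the values were -0.34, -0.23, -0.42 and -0.30 in pair 2 and -0.72 and -0.55 in pair 3, again without overlap.

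Further Sm genes had less negative means at their brightest probe. The mean of snrpe was -0.48 ± 0.18 (SE, n = 2; limma unadjusted p = 0.0430, adjusted p = 0.752), and that of snrpf, for SmF, was -0.38 ± 0.18, with all 6 arrays below 0 in both cases. The SmD3 gene snrpd3 was at -0.07 in pair 2 and -0.58 in pair 3, and its relative snrpd3l at -0.01 and -0.32, with -0.25 and -1.06 at the second probe of snrpd3l. The gene for SmB, snrpb, differed by dye in pair 2, with 0.10 and 0.16 in one orientation and -0.32 and -0.45 in the other, and lay below 0 on both arrays of pair 3. Its mean was -0.28 at the brightest probe and -0.72 at the second, which read -1.15 in pair 3. SmG's gene snrpg had the ratio nearest to 0 of the ring, at -0.06 ± 0.17, with arrays on both sides of 0.

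The 3 genes for proteins specific to U1 and U2 had a median of -0.19. The U2 protein gene snrpa1 had a mean of -0.19 ± 0.17 (SE, n = 2), with all 6 arrays between -0.31 and -0.06. The U1 protein gene snrpc was at -0.01 in pair 2 and -0.55 in pair 3. The U1 protein gene snrpa had a mean of -0.02 ± 0.17, at -0.08 in pair 2 and 0.03 in pair 3. Its second probe, however, read -0.18 and -0.77 in those pairs. Its mean turned to 0.04 with the scanner's processed signals or the deposited ratios, so its direction depends on the probe and the signal used.

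**Figure D2:**
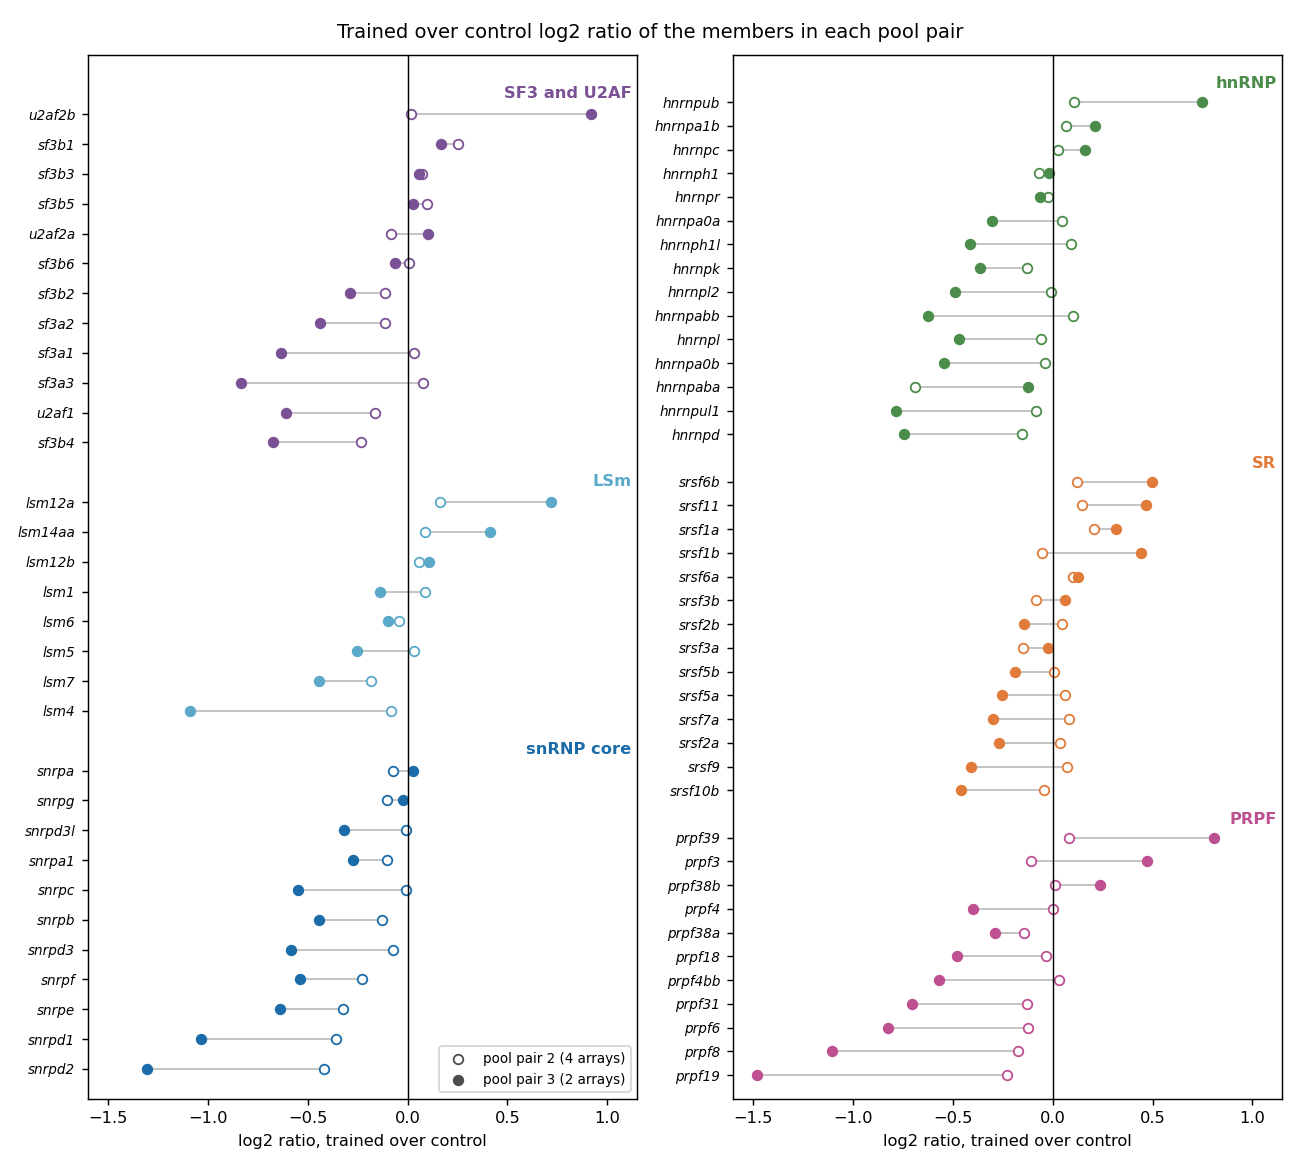
Log2 ratio of trained over control of 71 of the 72 genes (horizontal axis, log2 units), with an open circle for pool pair 2 (4 arrays), a filled circle for pool pair 3 (2 arrays) and genes sorted by mean within each group. Pair 2 values stay mostly near 0, while pair 3 values spread from -1.48 for prpf19 to 0.92 for u2af2b, and the snRNP core circles lie at or left of 0 except the pair 3 value of snrpa, 0.03.

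The LSm genes are given by role, in sub-lists made after the values were seen. LSm proteins 2 to 8 form the ring on U6 RNA, and LSm1 replaces LSm8 in the cytoplasmic ring that takes part in mRNA decay. The 5 genes of these rings that were measured had a median of -0.11 (-0.04 in pair 2, -0.25 in pair 3), and all 5 means were below 0. The lowest was lsm4, at -0.18, -0.28, 0.07 and 0.06 in pair 2 and -1.14 and -1.03 in pair 3, so that its mean of -0.59 ± 0.28 (SE, n = 2) rests on pair 3. In lsm7 all 6 arrays lay below 0, between -0.47 and -0.12, with a mean of -0.31 ± 0.18. The ring genes lsm5 and lsm6 had means of -0.11 and -0.07, and lsm1, of the cytoplasmic ring, had a mean of -0.02.

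The 3 LSm genes outside the rings had values above 0 in both pairs at their brightest probes. The lsm12 copies were at 0.44 ± 0.21 (SE, n = 2) for lsm12a and 0.08 ± 0.17 for lsm12b. All 6 arrays of lsm12a were above 0, from 0.01 to 0.84. Its second probe had a mean of -0.34, with -0.68 in pair 3, so its 2 probes gave opposite directions. The gene lsm14aa, of a family that acts in translational repression and mRNA storage granules, had a mean of 0.25 ± 0.18, and its second probe one of -0.04, with -0.13 in pair 3.

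SF3A and SF3B are the protein complexes that hold U2 snRNP on the branch point, and U2AF is the dimer that recognises the end of the intron before it. The 9 SF3 genes had a median of -0.20 (0.03 in pair 2, -0.29 in pair 3). Lowest was sf3b4, for a subunit that contacts the pre-mRNA near the branch point. It gave -0.28, -0.31, -0.23 and -0.11 in pair 2 and -0.75 and -0.60 in pair 3, a mean of -0.45 ± 0.19 (SE, n = 2; limma unadjusted p = 0.0628, adjusted p = 0.752), and its second probe had a mean of -0.38. All 6 of its arrays were below 0.

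The SF3A subunits differed between the pool pairs. For sf3a3 the arrays of pair 2 read 0.05, -0.03, 0.16 and 0.13 and those of pair 3 read -0.93 and -0.73, so the mean of -0.38 ± 0.26 (SE, n = 2) joins pairs of opposite sign. That mean was -0.73 with processed signals or the deposited ratios and -0.17 with backgrounds as deposited. The pairs also had opposite signs in sf3a1, at 0.03 and -0.63, though its second probe read 0.02 and 0.33. In sf3a2 all 6 arrays were below 0 and the mean was -0.28 ± 0.18. The SF3B subunit genes sf3b2, sf3b6, sf3b5 and sf3b3 had means of -0.20, -0.03, 0.06 and 0.07. The gene for the largest scaffold subunit, sf3b1, was above 0 on all 6 arrays, from 0.10 to 0.31, with a mean of 0.21 ± 0.17, or 0.69 with processed signals or the deposited ratios.

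U2AF is encoded by 3 genes here. The small subunit gene u2af1, whose protein reads the AG at the intron end, was below 0 on all 6 arrays, from -0.78 to -0.07, with a mean of -0.39 ± 0.19 (SE, n = 2). The large subunit, which binds the polypyrimidine tract, is encoded by u2af2a and u2af2b. The u2af2b arrays read 0.07, -0.11, 0.03 and 0.07 in pair 2 and 0.74 and 1.1 in pair 3, a mean of 0.47 ± 0.26 that rests on pair 3. The second probe of u2af2b read 0.21 in pair 3. The mean of u2af2a was 0.01 ± 0.17, with -0.08 in pair 2 and 0.10 in pair 3.

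PRPF genes encode factors named after yeast splicing mutants, several of them parts of the U4/U6.U5 tri-snRNP. The tri-snRNP sub-list was made after the values were seen. The 5 tri-snRNP genes (prpf3, prpf4, prpf6, prpf8 and prpf31) had a median of -0.41 (-0.13 in pair 2, -0.70 in pair 3), and prpf3 alone had a mean above 0. For prpf8, the scaffold at the centre of the catalytic spliceosome, the arrays read -0.18, -0.04, -0.28 and -0.19 in pair 2 and -1.18 and -1.02 in pair 3. All 6 lay below 0, with a mean of -0.64 ± 0.26 (SE, n = 2; limma unadjusted p = 0.0587, adjusted p = 0.752). However, its other 2 probes had means of -0.08 and 0.10. In prpf6, which bridges U5 and U4/U6, all 6 arrays also lay below 0, and 3 probes gave means of -0.47, -0.39 and -0.37.

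Among the other tri-snRNP genes, prpf31, needed to join U4/U6 with U5, had a mean of -0.41 ± 0.21 (SE, n = 2), and prpf4 one of -0.20 ± 0.19. The U4/U6 protein gene prpf3 went from -0.11 in pair 2 to 0.47 in pair 3. Outside the tri-snRNP, prpf19, the ubiquitin ligase of the complex that stabilises the active spliceosome, read -0.15, -0.30, -0.23 and -0.23 in pair 2 and -1.46 and -1.50 in pair 3. All 6 arrays were below 0 and the pairs did not overlap. Its mean was -0.85 ± 0.32 (limma unadjusted p = 0.0440, adjusted p = 0.752), with -0.56 and 0.13 at its other 2 probes. The second-step factor prpf18, the kinase gene prpf4bb and prpf38a had means of -0.26, -0.27 and -0.22. The U1-associated prpf39 was higher, at 0.08 in pair 2 and 0.81 in pair 3 (mean 0.44 ± 0.23), as was prpf38b, at 0.13 ± 0.17.

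Counting over all 72, the 4 genes snrpd2, snrpd1, snrpe and prpf19 (5.56%) had an unadjusted limma p under 0.05 and lay lower, against 1.82% of all genes, and none lay higher at that level, against 2.18%. A limma fit of all 6 arrays with the pair as a random block called 29 genes (0.184%) at an adjusted p under 0.05, none of them a member.

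The SR genes had means from -0.25 to 0.31. None of the 14 was below 0 on all 6 arrays, and 3 were above. These were srsf11, at 0.31 ± 0.18 (SE, n = 2), srsf1a, a copy of the founding SR protein gene, at 0.26 ± 0.17, and srsf6a, at 0.11 ± 0.17. The srsf11 arrays read 0.21, 0.18, 0.07 and 0.11 in pair 2 and 0.56 and 0.37 in pair 3. The second copy of srsf6, srsf6b, had a mean of 0.31 ± 0.18, with 1 array at -0.01. Median centring gave 0.12 for srsf11, 0.07 for srsf1a and 0.19 for srsf6b. At the other end, srsf10b, relative of a mammalian splicing repressor, was at -0.04 in pair 2 and -0.46 in pair 3, and srsf9 at 0.07 and -0.41. The second probe of srsf9, however, read 0.07 in pair 2 and 0.20 in pair 3. The pair 3 values of srsf7a, srsf2a, srsf5a and srsf5b lay between -0.30 and -0.19.

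The brightest probe did not speak for every SR transcript. The srsf2a gene was read by 5 probes, with pair 3 values of -0.27, -1.06, -1.23, -0.03 and -1.22 in order of brightness, against pair 2 values between -0.03 and 0.12. The second probe of srsf6a read -0.87 in pair 3 where the brightest read 0.13, and the second probe of srsf1a read -0.86 where the brightest read 0.32. The dimmest of 3 srsf3b probes read -1.47 in pair 3, against 0.06 at the brightest. Counting all 39 kept SR probes, 11 (28.2%) were at least 1.5-fold lower in pair 3, where none of the 14 brightest were. The same share was 47.1% for the 17 snRNP core probes, 28.6% for the 42 hnRNP probes and 10.2% for all 24105 kept probes. With the mean of all probes in place of the brightest, srsf1a turned to -0.07 and srsf6a to -0.15. Whether the probes of a gene read different transcript forms was not tested.

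**Figure D3:**
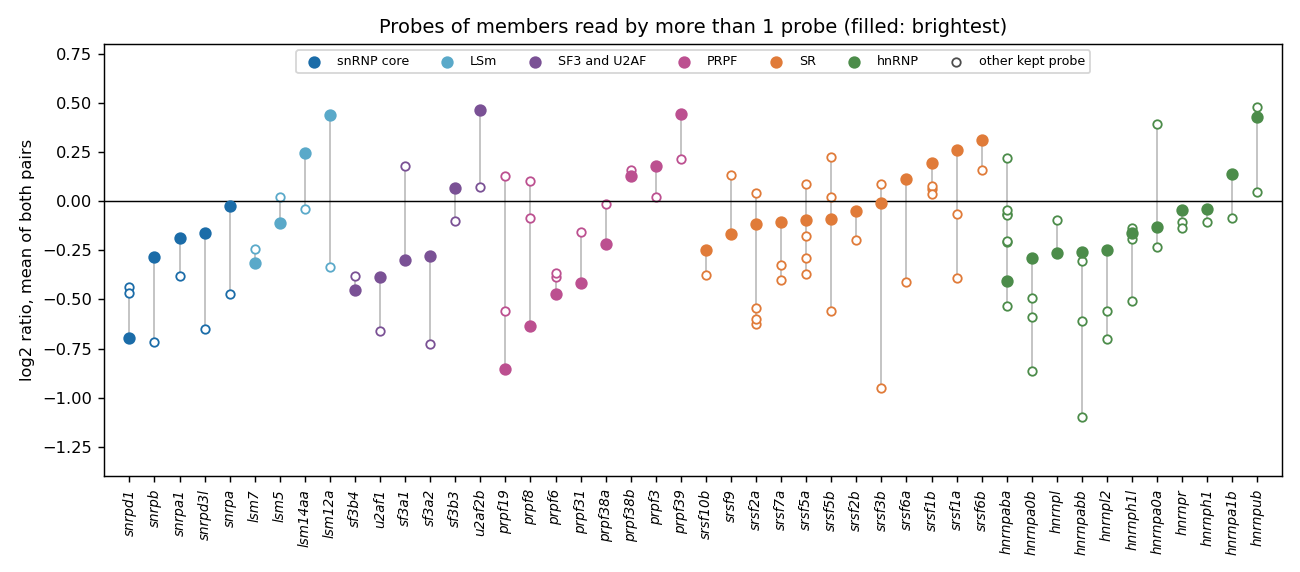
Log2 ratio of trained over control, as the mean of both pool pairs (vertical axis, log2 units), for each kept probe of the 46 members read by more than 1 probe. Filled circles are the brightest probe and open circles the others. In 17 of the 46 genes the probes lie on both sides of 0, and in 23 they lie within 0.3 of each other. No share of all genes is given for these counts.

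The hnRNP genes had a median of -0.25, and 9 of 15 lay below 0 in both pairs against 3 above. For hnrnpd, which binds AU-rich RNA, the pair values were -0.15 and -0.75, a mean of -0.45 ± 0.21 (SE, n = 2). The gene hnrnpul1, of a nuclear family with scaffold attachment proteins, was at -0.09 and -0.78, a mean of -0.43 ± 0.23. That mean was -1.06 with processed signals or the deposited ratios and -0.20 with backgrounds as deposited. The only hnRNP gene below 0 on all 6 arrays was hnrnpk, a poly(C)-binding protein gene, from -0.38 to -0.0011, with a mean of -0.25 ± 0.17, or -0.57 with processed signals. The gene hnrnpl, for a protein that binds CA repeats, was at -0.26, its relative hnrnpl2 at -0.25, and the G-tract binders hnrnph1l and hnrnph1 at -0.16 and -0.04.

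A single hnRNP gene lay above 0 on all 6 arrays. This was hnrnpub, related to the nuclear scaffold protein hnRNP U, with 0.07, 0.07, 0.15 and 0.13 in pair 2 and 0.59 and 0.90 in pair 3. Its mean was 0.43 ± 0.22 (SE, n = 2; limma unadjusted p = 0.106, adjusted p = 0.752), and its other probes had means of 0.48 and 0.05. With median centring its mean was 0.23. The hnRNP A1 copy hnrnpa1b was at 0.14 ± 0.17 and the hnRNP C gene hnrnpc, whose protein binds U tracts, at 0.09 ± 0.17. The gene hnrnpr had a mean of -0.04.

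The copy hnrnpaba, by contrast, had its most negative pair value in pair 2. Its brightest probe read -1.02, -1.05, -0.34 and -0.33 in pair 2, a mean of -0.69, or 1.61-fold lower, and -0.50 and 0.25 in pair 3. The array values differed by dye orientation within each pair. Of its 8 probes, 3 read -0.55 or lower in pair 2 and 1 read -1.03 in pair 3. Probes above 0 in pair 3 read 0.39, 0.42, 0.44 and 0.02. With the mean of probes in place of the brightest, the mean of hnrnpaba over both pairs was -0.16. The other copy, hnrnpabb, was at 0.10 in pair 2 and -0.62 in pair 3 at its brightest probe. Its other probes read -0.07, -0.10 and -0.31 in pair 2 and -1.15, -0.52 and -1.89 in pair 3. With the mean of probes, hnrnpabb had a mean of -0.57 over both pairs.

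Both copies of 9 duplicated genes passed the filter. Means of copies a and b were 0.44 and 0.08 for lsm12, 0.01 and 0.47 for u2af2, 0.26 and 0.19 for srsf1, and -0.12 and -0.05 for srsf2. They were -0.09 and -0.01 for srsf3, -0.09 and -0.09 for srsf5, 0.11 and 0.31 for srsf6, -0.13 and -0.29 for hnrnpa0, and -0.41 and -0.26 for hnrnpab. The means of both copies lay on the same side of 0 for each gene, but not within each pair or in every alternative. In pair 2 the brightest probes of copies a and b read -0.08 and 0.02 for u2af2 and 0.21 and -0.05 for srsf1. They read 0.04 and -0.04 for hnrnpa0 and -0.69 and 0.10 for hnrnpab. In pair 3 the srsf3 copies read -0.02 and 0.06. Within each pair, copies of lsm12, srsf2, srsf5 and srsf6 lay on the same side. With median centring lsm12b and srsf6a turned to -0.10 and -0.08. With backgrounds as deposited u2af2a was -0.03 beside 0.24 for u2af2b, and srsf2b was 0.10 beside -0.05 for srsf2a. With the mean of probes srsf1a was -0.07 beside 0.09 for srsf1b, srsf6a was -0.15 beside 0.23 for srsf6b, and hnrnpa0a was 0.01 beside -0.56 for hnrnpa0b. Copies of lsm12, u2af2, srsf1, srsf3 and srsf5 also lay on opposite sides with 1 of the slides alone, where dye does not cancel in pair 3. The distance between copies was larger than the SE of either copy for lsm12, u2af2 and srsf6, and smaller for the others. The probes' cross-reaction between copies was not tested. The symbols snrpa and snrpb, and prpf38a and prpf38b, also end in a and b, but name different proteins.

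**Figure D4:**
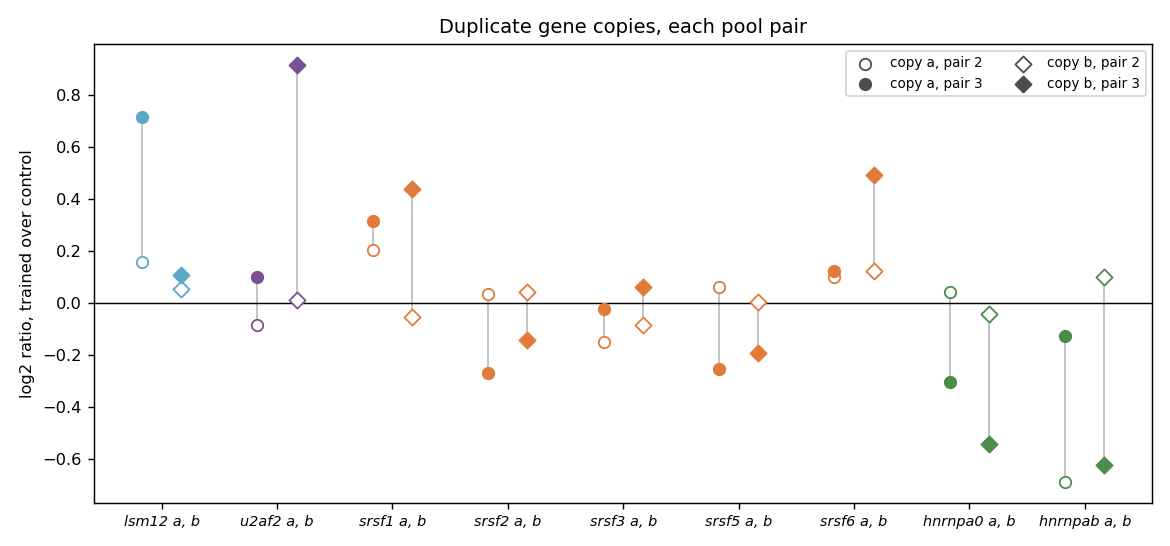
Log2 ratio of trained over control (vertical axis, log2 units) of both copies of 9 duplicated genes. Circles are copy a and diamonds copy b, open for pool pair 2 and filled for pool pair 3. The filled u2af2b diamond stands at 0.92 and the open hnrnpaba circle at -0.69.

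The 2 pool pairs differed from each other for most members. In a limma fit of the 6 arrays with a coefficient per pair and a dye term, which measures the spread between hybridisations and not between pools, 42 members (58.3%) were lower in pair 3 than in pair 2 at an adjusted p under 0.05, and 11 were higher. Over all genes the shares were 29.5% lower and 34.3% higher. By class, 9 of 11 snRNP core genes were lower in pair 3 and none higher, 9 of 15 hnRNP genes were lower and 2 higher, and 7 of 14 SR genes were lower and 3 higher. The largest of these differences were -1.25 ± 0.070 (SE) in prpf19 (limma adjusted p = 1.33e-08) and -1.01 ± 0.072 in lsm4 (limma adjusted p = 1.18e-07). Among the 46 genes picked for naming, 37 differed between the pairs. Some of the 46 were picked for their large difference between pairs, so the choice itself raises this count. With outlying local backgrounds on 1 array of pair 3 kept as deposited, 4 of the 46 differed. No share of all genes is given for that setting, so the lower count cannot be read as particular to these genes. With those backgrounds the means of prpf19, prpf8, lsm4, sf3a3 and u2af2b were -0.55, -0.40, -0.38, -0.17 and 0.24.

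Signal levels were also set side by side for the 4 pools. Pools of different number never shared an array, so these levels rest on a scaling of all arrays to a common distribution. Control pool 3 held the highest level of the 4 pools in 10 of 11 snRNP core genes (90.9%), 11 of 15 hnRNP genes and 7 of 14 SR genes, against 28.3% of all genes. Trained pool 2 held the lowest level in 10 of the 11 core genes, against 14.3% of all genes. For snrpd2 the log2 levels were 8.79 in control 2, 8.37 in trained 2, 9.90 in control 3 and 8.60 in trained 3. Control pool 3 stood above the other 3 pools, which lay between 8.37 and 8.79. Among the core genes, however, only snrpd2 and snrpb had trained pool 3 below control pool 2. In snrpd1, for example, trained pool 3 was at 10.80 and control pool 2 at 10.67. Control pool 3 exceeded control pool 2 by a median of 0.60 in the core genes, 0.43 in the hnRNP genes and 0.25 in the SR genes, against -0.05 for all genes. Trained pool 3 exceeded trained pool 2 by a median of 0.40 in the core genes, in 10 of 11 of them, by 0.17 in the hnRNP genes and by 0.27 in the SR genes, against -0.01 for all genes. In the core genes the 2 control pools thus differed by as much as the members of pair 3 did, with a median of -0.54 there, and pool and training cannot be told apart in the pair 3 ratio.

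**Figure D5:**
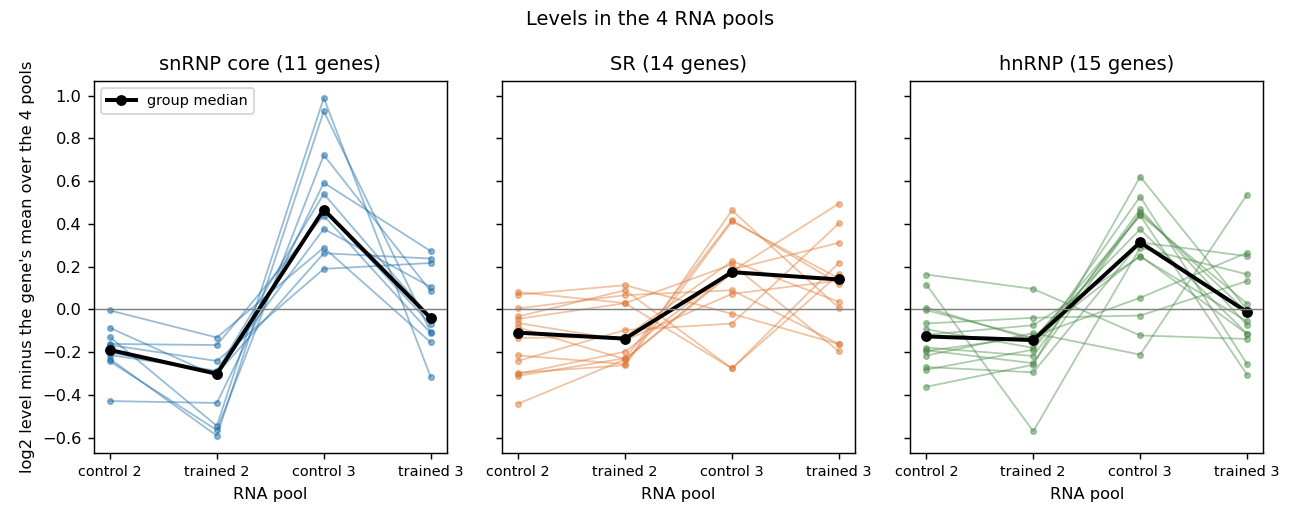
Log2 level in each of the 4 RNA pools minus the gene's mean over the pools (vertical axis, log2 units) for snRNP core, SR and hnRNP genes. Thin lines are genes and the black line is the group median. The snRNP core lines peak at control 3 in 10 of 11 genes. The SR median stays high from control 3 to trained 3, though trained 3 is the lowest pool in 3 of the 14 SR genes.

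Proliferation markers also lay lower in trained fins. Of 15 listed, such as pcna, mcm5 and cdk1, 11 passed the filter, 8 lay below 0 in both pairs and none above 0 in both, with a median of -0.24 (-0.11 in pair 2, -0.43 in pair 3). Their summed level was 8221 in control 2, 7746 in trained 2, 13688 in control 3 and 10466 in trained 3, so that control pool 3 was highest here too. The other 4, mki67, top2a, rrm2 and bub1, had no probe under these symbols, so their signal was not measured. The summed level of 14 epidermal markers was lowest in control pool 3, at 242366, and between 263903 and 367589 in the other pools. The 13 fast muscle markers likewise summed to 308400 in control pool 3 and to between 374654 and 498949 elsewhere. Control pool 3 also held the lowest sum of distal fin (34425), cartilage and bone (37784) and neural markers (4641). The lowest sum of slow muscle markers was in trained pool 3 (16999), and that of pigment markers in trained pool 2 (2463). Other marker lists had medians of 0.25 (epidermis), 0.16 (fast muscle, 0.36 in pair 2 and -0.03 in pair 3), -0.23 (6 slow muscle genes), 0.05 (9 cartilage and bone genes, -0.28 and 0.08), 0.10 (9 neural genes, -0.08 and 0.22), 0.02 (distal fin) and -1.23 (3 pigment genes). Blood, leukocyte, gut and liver, and retina and lens lists had 3 or fewer genes above background, with medians between -0.02 and 0.05. The part of these cell mixtures in the splicing result was not tested.

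Other splicing genes were taken from a list of 136 symbols that excludes the 72. Of these, 108 were tested, with a median of -0.06 (-0.15 in pair 3). A mean below 0 was found in 71 (65.7%), against 42.8% of all genes, and 47 (43.5%) lay below 0 in both pairs, against 24.7%. There were 13 (12.0%) on each side on all 6 arrays, against 8.37% below and 11.8% above for all genes. At an unadjusted limma p under 0.05, 8 (7.41%) lay higher and none lower, against 2.18% and 1.82% of all genes. The lowest of one sign on all arrays were alyref, an mRNA export adaptor, at -0.72 ± 0.29 (SE, n = 2), the spliceosome protein gene bud31 at -0.68 ± 0.29 and the second-step factor cdc40 at -0.56 ± 0.23. The highest were u2surp, for a U2-associated SR-related protein, at 1.06 ± 0.35, clk2a, for a kinase that phosphorylates SR proteins, at 1.01 ± 0.30, and esrp2, an epithelial splicing regulator, at 0.87 ± 0.22. The u2surp arrays read 0.29, 0.22, 0.42 and 0.51 in pair 2 and 1.68 and 1.84 in pair 3. All 6 lay above 0, where those of snrpd2 all lay below. With backgrounds as deposited the means of alyref, cdc40 and u2surp were -0.45, -0.33 and 0.70, and with the mean of probes that of clk2a was 0.61.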

How the data were processed

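The authors extracted 2-colour scans with Agilent Feature Extraction 10.5.1.1, per the submitters' processing notes. The deposited scanner files hold an intensity per spot and local background in both channels, and Cy5 over Cy3 as a log10 ratio. The series' deposited table of 43553 probes equals that log10 ratio (100% within 0.01).

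Median intensities were background-corrected with normexp (offset 50) and loess within arrays, in limma 3.58.1 under R 4.3.3. Local backgrounds over 10 median absolute deviations from the array's median, at most 74 per channel, were replaced by it, a step chosen after the data had been seen. Control and flagged spots had weight 0. Each ratio was given the direction trained over control, then averaged over dye orientations within a pool pair, since arrays of a pair share their RNA. Labels do not say that a pool number marks a shared clutch or day, and p-values measure the spread between these pools only. Accessions were matched to RefSeq symbols of GRCz12tu without coordinates, naming 25173 of 43603 probes. Genes were tested against 0 with limma, Benjamini-Hochberg adjusted, with 1 residual and 4.15 prior degrees of freedom. The fits were tested on simulated data.

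Pool levels came from channels scaled by Aquantile. The members, the marker and splicing lists and the tests were chosen with earlier results of these data known, and the role sub-lists (Sm ring, tri-snRNP, LSm ring) after values were seen. Named genes are, per group, up to 3 members with the highest and lowest means of one sign on all arrays, duplicate pairs and the 2 members differing most between pairs, plus 3 other splicing genes per direction. Other members are named because they belong to the set, except 1 that is counted but not reported here, and further probes and hnrnpaba's departure were picked after values were seen. Alternatives covered background, offset, scaling, filter, probe choice, repeats, slide, blocks and leaving out each pair.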

Additional observations from a re-analysis of the deposited data

Results flagged for a closer look

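Of 52 items tested for a single array far from the other 5, 2 stood out, and about 1 in 20 would by chance. Both came from the pair 3 array with trained RNA in Cy3, which is also the array that holds the outlying local backgrounds. On that array srsf3a had a log2 ratio of 0.0945, where the other arrays lay between -0.20 and -0.11. Its duplicate srsf3b had 0.17, where the others lay between -0.12 and -0.05. Both genes encode the small SR protein SRSF3.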

How the results depend on the processing

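The median log2 ratio of snRNP core, PRPF and hnRNP genes stayed below 0 in every alternative run. Not all of these runs could differ. Aquantile after loess and the filter in both channels left the member ratios unchanged, and the deposited table nearly equalled the processed signals. With 1 pool pair left out, medians ranged from -0.54 to -0.10 for snRNP core, from -0.12 to 0.04 for LSm, from -0.17 to 0.01 for SF3 and U2AF, from -0.49 to -0.08 for PRPF, from -0.082 to 0.0533 for SR and from -0.37 to -0.02 for hnRNP genes. All 11 core genes were below 0 except with processed signals, the deposited table, slide 2 alone or pair 3 alone (10 of 11 each). A fit of 6 arrays with the pair as a random block called 29 genes, and 5 with slide as a fixed block too, with 0 members in either. With no replicate block (4 pools from separate channels) the count was 0. Median centring gave medians of -0.16 for LSm, -0.28 for SF3 and U2AF and -0.20 for SR genes, and left 4 members below 0 on all arrays and 1 above. With technical repeats left out, and with slide 1 alone, 11 were above 0 on all arrays in use. Fewer arrays are in use there, so one sign on all of them is reached more easily. No share of all genes is given for these counts or for those with median centring. With local backgrounds as deposited, 4 of the 46 named genes differed between pairs, and no share of all genes is given beside this count.

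Among single genes, snrpa turned to 0.0399 with processed signals and the deposited table. With backgrounds as deposited u2af2a was -0.031 and srsf2b 0.10, and with offset 10 srsf3b was 0.000475. Median centring gave srsf6a -0.084 and lsm12b -0.10. The mean of probes gave srsf1a -0.066, srsf6a -0.15 and hnrnpa0a 0.0102. Slide 1 gave lsm12b -0.0188, srsf2a 0.0222 and srsf2b 0.28. Slide 2 gave srsf1b -0.000912, u2af2a -0.0187, srsf5b 0.00760 and srsf3b 0.0397. Without the pair 3 array that holds the outlying backgrounds, a choice made after seeing the data, lsm12b was -0.00769, u2af2a -0.0202, srsf2a 0.0225 and srsf2b 0.28. Leaving out pair 2 or pair 3, ranges were -0.081 to 0.0623 for srsf3b, -0.0751 to 0.0276 for snrpa, -0.83 to 0.0794 for sf3a3, -0.0516 to 0.44 for srsf1b, -0.41 to 0.0735 for srsf9, -0.62 to 0.10 for hnrnpabb, -0.0834 to 0.10 for u2af2a, -0.27 to 0.0356 for srsf2a, -0.14 to 0.0445 for srsf2b, -0.25 to 0.0621 for srsf5a, -0.19 to 0.00468 for srsf5b and -0.30 to 0.0447 for hnrnpa0a. The cause was not tested. Precision is limited by 2 pool pairs, and within a slide pair 3 has 1 dye orientation, so dye does not cancel there.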

Other observations

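Some members differed by the dye of the trained RNA more than between pools. The log2 ratios of the 2 arrays of pair 2 that are not repeats, which have opposite dyes, correlated at 0.13. Those of its 2 arrays with trained RNA in Cy5 correlated at 0.86, and those with it in Cy3 at 0.78. The 2 arrays of pair 3, also of opposite dyes, correlated at 0.89. For srsf2b the arrays with trained RNA in Cy5 averaged 0.75 in pair 2 and read 0.52 in pair 3, and those with it in Cy3 averaged -0.66 and read -0.80. The gap between orientations in pair 2 was 1.41 for srsf2b, 0.93 for hnrnpa0b, 0.84 for srsf1b and -0.70 for hnrnpaba, and it exceeded 0.5 in size in 8 of the 72 members. In pair 3 the gaps of these genes were 1.31, 0.87, 0.72 and -0.76. The orientations had opposite signs in 33 members in pair 2 and in 12 in pair 3. No share of all genes is given for these counts, so they cannot be read as particular to the splicing genes. Means over both orientations cancel a constant dye effect.

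Outside the naming rule, and picked after values were seen, mbnl1, for a muscleblind splicing regulator, stood at 0.16 in pair 2 and 2.05 in pair 3, the highest pair 3 value of the other splicing genes. The SR kinase gene clk4b was at 0.34 and 0.99, and the SR-related nuclear matrix gene srrm1 at 0.23 and 1.49.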
